A study of Saccharomyces cerevisiae with 46 samples.

Results

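Chromosome X of budding yeast is described here through its 746 bins of 1 kb, taken as every bin of that chromosome among the 12165 bins measured in each sample. In the R64 assembly of the reference strain S288C it is 745751 bp long, which is 6.18% of the nuclear genome, and it carries 365 of the 6002 nuclear protein-coding genes in the gene table used. The left arm held 436 bins and the right arm 310, divided at position 436307, between PRE3 (X:435163-435926), which codes for a catalytic subunit of the proteasome, and AVT1 (X:436802-438610), which codes for a vacuolar amino acid transporter.

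The series addressed how gains of particular chromosomes relate to a shortage of Bub3. Genomic DNA from cultures of the W303 background was sequenced in 46 samples, and read depth was given as a log2 copy ratio per bin. There were 20 lines with codes such as A1 or G4, each with 1 evolved and 1 non-evolved sample, and 3 of them (C2, E3 and G4) also had an evolved_Bub3 sample. Wildtype LY1 was sampled once as evolved_Bub3, once as evolved and once as non-evolved. The labels gave no genotype for the lines, no ploidy, no conditions or length of the evolution, and no account of what was done to make an evolved_Bub3 sample. They also did not say whether lines share an ancestor, so each p-value below measures the spread between these lines only. The cultures were bulk cultures, in which an intermediate level in every cell and a mixture of different cells cannot be told apart.

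Bub3 is a protein of the spindle assembly checkpoint, which holds back chromosome separation until every chromosome is attached to the spindle. Cells with a weakened checkpoint missegregate chromosomes more often and can become aneuploid, that is, carry an extra or a missing copy of single chromosomes. Because all genes of a gained chromosome are gained together, an extra chromosome X changes the dose of many unrelated functions at once, among them the checkpoint proteins Mad2 and Mad3, whose genes lie on its left arm.

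Levels are differences on the log2 scale: the median over the bins of X, less a baseline for that sample, namely the median of its 16 nuclear chromosome medians. A level of 0 therefore means the same depth as a typical chromosome of that sample, and X was called gained from 0.3 upwards. Read totals recovered from the ratios were 1961866 to 3770032 per sample, of which 89977 to 262560 fell on chromosome X, and the median bin of X held 127 to 373 reads. The standard error of the X level over bins was at most 0.009 in any sample, which covers counting and bin-to-bin spread within a library and not the spread between cultures.

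Chromosome X was raised in a minority of the lines, and the raised lines were mostly different in the evolved and the non-evolved state. Among evolved lines the level was 0.94 in F4, 0.91 in D4 and 0.39 in B3. Among non-evolved lines it was 0.91 in E4, 0.90 in G4 and 0.86 in A3, with lower levels of 0.28 in D4 and 0.24 in E3. In the other 38 samples it lay between -0.02 and 0.04, so no sample stood between 0.04 and 0.24. As linear ratios to the baseline, the raised levels were 1.92 in F4, 1.87 in D4 and 1.31 in B3 in the evolved state, and 1.88 in E4, 1.86 in G4, 1.82 in A3, 1.21 in D4 and 1.18 in E3 in the non-evolved state. No sample had a level of chromosome X far below 0, the lowest being -0.02.

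**Figure D1:**
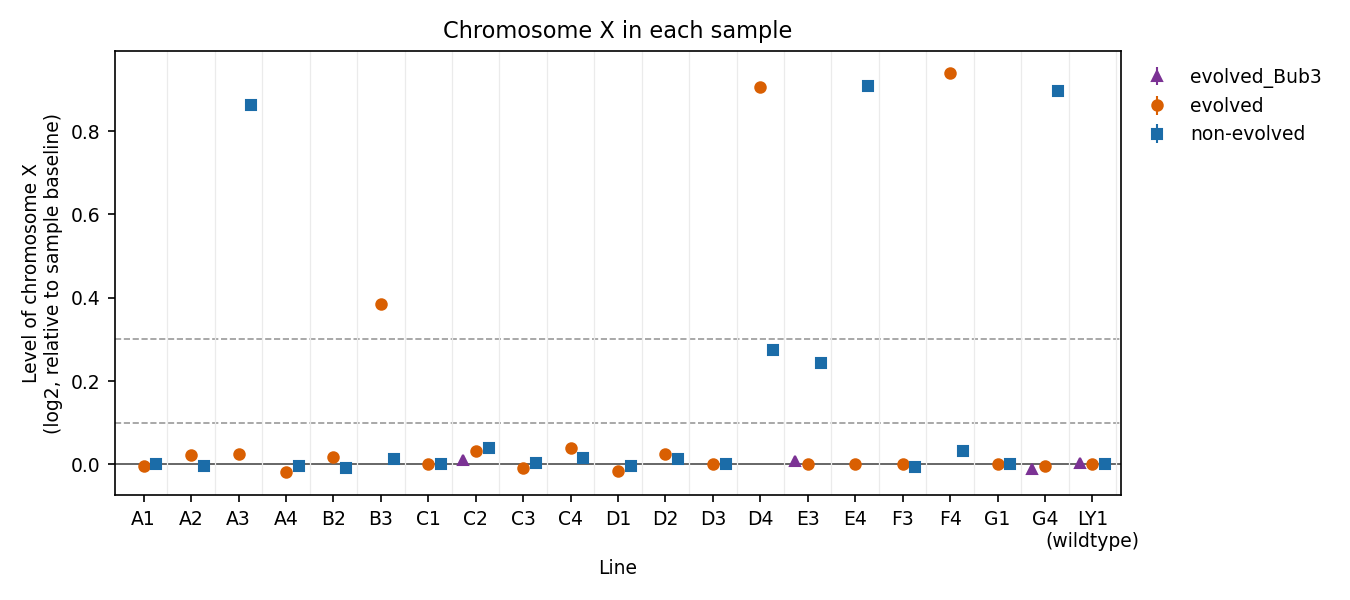
Level of chromosome X (log2, vertical axis) in each sample of the 20 lines and of wildtype LY1 (horizontal axis), with evolved_Bub3 as triangles, evolved as circles and non-evolved as squares; error bars are standard errors over bins and are smaller than the points, and dashed lines mark 0.1 and 0.3. The 8 raised samples lie between 0.24 and 0.94 and all others between -0.02 and 0.04.

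Chromosome X was gained in 3 of 20 evolved lines (B3, D4 and F4) and in 3 of 20 non-evolved lines (A3, E4 and G4). Over all 16 chromosomes, 7.81% of the chromosome levels of evolved lines and 7.19% of those of non-evolved lines were called gained, against 15% of the lines in each state for X, a difference that rests on 3 lines a state. That average includes chromosomes never called gained in these lines. Evolved and non-evolved gains were 7 and 8 for II, 5 and 4 for III, and 5 and 2 for I. They were 3 and 2 for VIII, 2 and 2 for XI, and 0 and 2 for XII. X was therefore not the most often gained. At or above 0.1, X stood in 3 evolved lines (15%, beside 12.2% of all chromosome levels) and in 5 non-evolved lines (25%, beside 10%). No line had a called gain of X in both states. D4 was the only line at or above 0.1 in both, with 0.91 in the evolved and 0.28 in the non-evolved sample. In all, 7 of the 20 lines were at or above 0.1 in at least 1 state.

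Shares of reads separated the same 8 samples from the rest. Chromosome X took 10.7% of the nuclear reads in evolved F4 (95% Wilson interval 10.7% to 10.8%), 10.4% in evolved D4 and 7.5% in evolved B3. It took 10.3% in non-evolved A3 and E4, 10.0% in non-evolved G4, 6.92% in non-evolved D4 and 6.59% in non-evolved E3 (interval 6.56% to 6.62%). The 38 other samples had shares of 5.24% to 6.10%, against a share of length of 6.18%. The share also falls where other chromosomes are gained, so it is not a copy number on its own.

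Between the states the level of chromosome X did not differ beyond the spread of the lines. It averaged 0.12 ± 0.29 in evolved and 0.16 ± 0.32 in non-evolved lines (SD, n = 20 each). The paired difference was -0.05 ± 0.44 (SD), with an adjusted p of 0.973 in a two-sided sign-flip permutation test over 20 lines adjusted over 16 chromosomes. Of the lines, 7 changed by at least 0.1, of which 3 were higher in the evolved sample (B3, D4 and F4) and 4 were lower (A3, E3, E4 and G4). The other 13 lines changed by at most 0.027. Gain calls were new in the evolved sample of 3 lines and absent from the evolved sample of 3 others, and the exact McNemar test gave p = 1. No chromosome of the 16 (0%) passed the permutation test of levels at an adjusted p under 0.05, and 1 had an unadjusted p under 0.05. The library numbers in the sample descriptions run by state, so the order of the libraries and the state cannot be told apart.

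The lines with an evolved_Bub3 sample differed in their history of chromosome X, and none of them carried a raised X in that sample. C2 had a level of 0.010 in the evolved_Bub3, 0.033 in the evolved and 0.040 in the non-evolved sample. E3 had 0.008 in the evolved_Bub3 and 0.000 in the evolved sample, against 0.24 in the non-evolved one. G4 had -0.011 in the evolved_Bub3 and -0.003 in the evolved sample, against 0.90 in the non-evolved one. In E3 and G4 the evolved sample already lay near 0. The evolved_Bub3 samples averaged 0.0025 ± 0.012 and the evolved samples of the same lines 0.0099 ± 0.020 (SD, n = 3 each). The difference was -0.0074 ± 0.015, with p = 0.75 in an exact sign-flip test, in which 3 lines cannot give a p below 0.25. Of the chromosome levels of evolved_Bub3 lines, 14.6% were called gained, against 0 of 3 for X. Wildtype LY1 had levels of 0.003 in the evolved_Bub3, 0.000 in the evolved and 0.000 in the non-evolved sample.

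The coverage of BUB3 (XV:379781-380806) differed widely between samples, and all 8 samples with a raised X were among those with low BUB3 coverage. The gene fills only part of its 2 bins, so reads from its neighbours enter the value, and the labels do not tie it to a genotype. Relative to chromosome XV, the mean of the 2 bins was -1.41 in F4, -1.29 in B3 and -1.12 in D4 among the evolved samples with a raised X. It was -1.41 in G4, -1.28 in E3, -1.25 in E4, -1.15 in A3 and -1.12 in D4 among the non-evolved ones. Below -0.6 in both states were 11 lines, with -1.44 to -1.05 in evolved and -1.46 to -0.97 in non-evolved samples. The other 9 lines had -0.29 to 0.11 in evolved and -0.25 to 0.08 in non-evolved samples. X was under 0.1 in both states in those 9 lines and also in 4 of the 11 with low coverage, A2, C2, C4 and D2. This was not particular to X. In evolved and non-evolved samples of the lines, all levels of I, II, III and VIII at or above 0.1 also came from the 11 lines. Levels of VI, XI and XII at or above 0.1 came from A1, A4 or B2, which are among the other 9. The evolved_Bub3 samples were above 0, with 0.76 for C2, 1.42 for E3, 1.34 for G4 and 1.19 for wildtype LY1. These coverage ranges are a description, since samples were not grouped by measured coverage for any test.

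**Figure D2:**
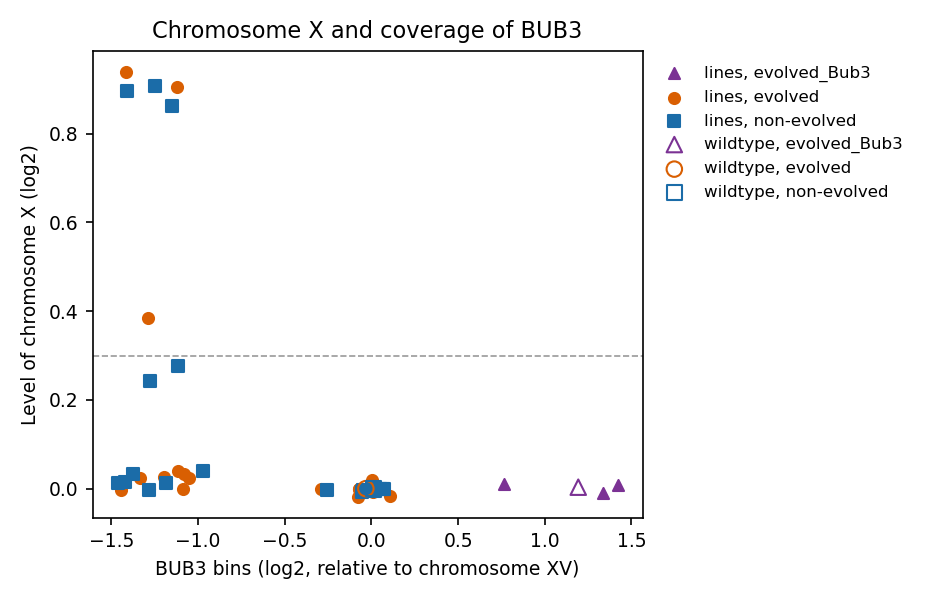
Level of chromosome X (log2, vertical axis) against the mean of the BUB3 bins relative to chromosome XV (log2, horizontal axis) for 46 samples; triangles are evolved_Bub3, circles evolved and squares non-evolved, open symbols are wildtype LY1, and the dashed line marks 0.3. The 8 raised samples lie between -1.41 and -1.12 on the horizontal axis, where samples with X near 0 lie too.

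The samples with a raised X differed in which other chromosomes were raised. In evolved B3, chromosome I stood at 1.29, VIII at 0.15 and II at 0.10. In evolved D4, VIII stood at 0.63, III at 0.37 and I at 0.18. In evolved F4, I stood at 0.89 and II at 0.25. Among non-evolved samples, A3 had X as its only gain, with VIII at 0.20, I at 0.13 and III at 0.10. Non-evolved D4 had I at 0.90, VIII at 0.71 and III at 0.20, and non-evolved E3 had III at 0.93 and II at 0.78. Non-evolved E4 had VIII at 0.81 and I at 0.22, and non-evolved G4 had II at 0.93.

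X was the highest of the 16 chromosomes in evolved D4 and F4 and in non-evolved A3 and E4. It was in rank 2 in evolved B3 and non-evolved G4, and in rank 3 in non-evolved D4 and E3. Chromosome II was gained beside X in 0 of 3 evolved and 1 of 3 non-evolved samples, against 7 of the 10 other samples with a gain in each state. For I the counts were 2 of 3 against 3 of 10 in evolved and 0 of 3 against 2 of 10 in non-evolved samples. For III they were 1 of 3 against 4 of 10 and 0 of 3 against 4 of 10. For VIII they were 1 of 3 against 2 of 10 and 1 of 3 against 1 of 10. The 10 others include non-evolved D4 and E3, with X raised but not called gained, and A1 and A4, with gains of XI. With 3 samples a state these counts are a description and were not tested. In line D4 the evolved sample had more of X (0.91 against 0.28) and of III (0.37 against 0.20) than the non-evolved sample. It had less of I (0.18 against 0.90), while VIII was close (0.63 against 0.71).

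**Figure D3:**
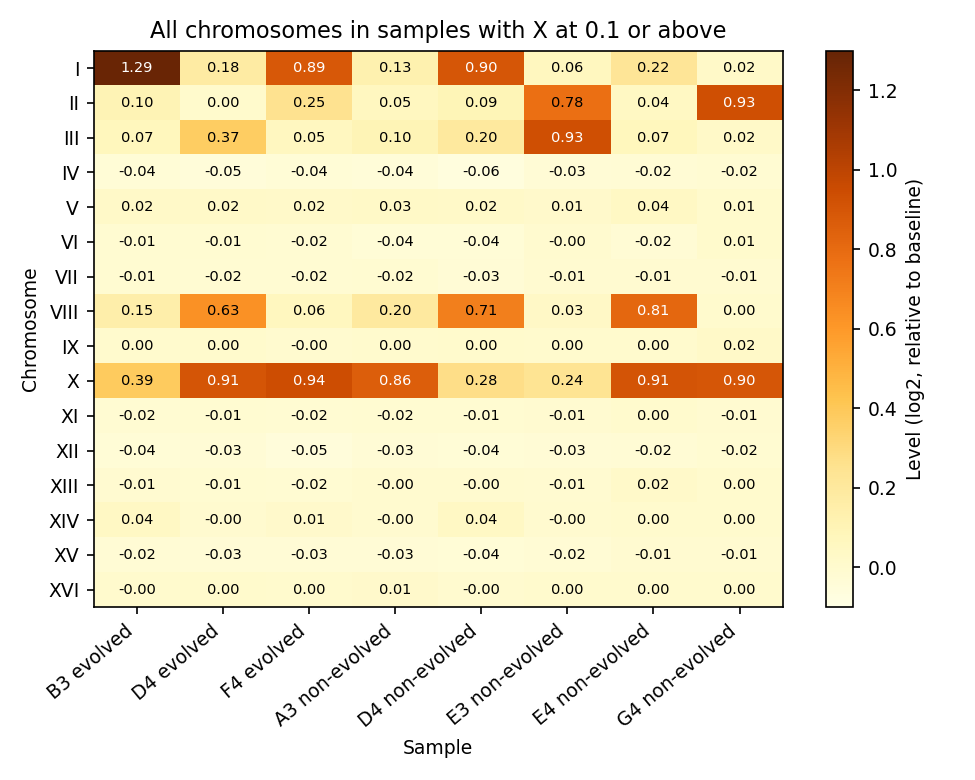
Levels of the 16 nuclear chromosomes (rows; colour and printed number, log2 relative to the sample baseline) in the 3 evolved and 5 non-evolved samples with X at or above 0.1 (columns). X shares its sample with a level above 0.6 of I, II, III or VIII in all of them but non-evolved A3.

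In the raised samples the arms were raised to about the same level. In evolved samples the left and the right arm stood at 0.94 and 0.95 in F4, 0.89 and 0.91 in D4 and 0.38 and 0.39 in B3. In non-evolved samples they stood at 0.90 and 0.92 in E4, 0.89 and 0.92 in G4, 0.86 and 0.86 in A3, 0.28 and 0.28 in D4, and 0.24 and 0.25 in E3. A search for steps of at least 0.3 over stretches of at least 20 bins, run on the 700 bins outside the outer 20 kb, found 1 segment in each of the 46 samples. A partial gain shorter than 20 bins or with a step under 0.3 would not be seen by that search.

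Windows of 50 kb stayed near the level of the chromosome and, relative to the wildtype samples, were a little lower toward both ends. Relative to the mean of the 3 wildtype samples, the 15 windows spanned 0.88 to 0.99 in evolved F4, 0.84 to 0.95 in evolved D4 and 0.32 to 0.44 in evolved B3. Among non-evolved samples they spanned 0.86 to 0.93 in E4, 0.84 to 0.95 in G4, 0.75 to 0.89 in A3, 0.16 to 0.34 in D4 and 0.14 to 0.29 in E3. The SD over windows was 0.024 to 0.049 in these 8 samples. The outermost right window lay below the sample's median window in 8 of 8 samples, by -0.11 to -0.035, and was the lowest of all 15 in 6 of them. The outermost left window lay below it in 8 of 8, by -0.086 to -0.026. Wildtype LY1 in the non-evolved state was itself higher near the ends of X, by 0.11. Without that sample in the reference, the right window differed from the median by -0.10 to -0.020 and was lowest in 3 samples, and the left window differed by -0.056 to 0.0017. Windows of samples with X under 0.1 were not set against wildtype. Stretches 20 to 70 kb from the ends, less the middle of X, stood at -0.0086 to 0.022 in the 8 samples. Samples with X under 0.1 ran from -0.032 (non-evolved F4) to 0.30 (non-evolved B2). The dip is therefore not shown to be particular to a raised X. Relative to the line's other sample (evolved minus non-evolved), the dip was not seen in every line. The outermost right window was 0.33 in B3, 0.70 in D4 and 0.88 in F4, against median windows of 0.36, 0.63 and 0.92. It was -0.76 in A3, -0.099 in E3, -0.92 in E4 and -0.91 in G4, against -0.82, -0.24, -0.89 and -0.90. The outermost left window was 0.41 in B3, 0.63 in D4 and 0.89 in F4. It was -0.82 in A3, -0.21 in E3, -0.88 in E4 and -0.90 in G4. Every one of the 716 bins with reads in all samples was above the wildtype mean in the 5 samples at 0.86 or higher. The count was 715 in evolved B3, 687 in non-evolved D4 and 672 in non-evolved E3. In the samples of the lines with X under 0.1, 46.8% to 62.4% of the bins were above it.

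**Figure D4:**
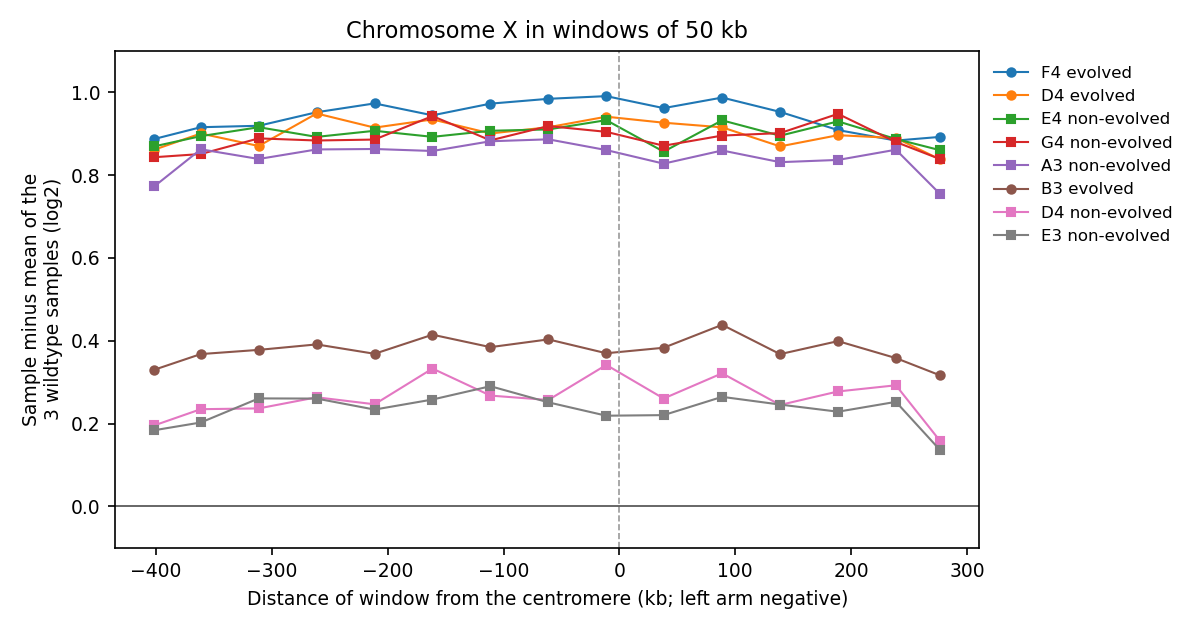
Level in windows of 50 kb minus the mean of the 3 wildtype samples (log2, vertical axis) by distance from the centromere (kb, horizontal axis, left arm negative) for the 8 samples with a raised X; circles are evolved and squares non-evolved. The 5 upper lines run between 0.75 and 0.99 and the 3 lower ones between 0.14 and 0.44 along the whole chromosome. The outermost windows lie below the median window of each sample, and samples with X under 0.1 are not shown.

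The arms differed by little in all groups. Left minus right averaged -0.020 ± 0.015 in evolved and -0.017 ± 0.017 in non-evolved lines (SD, n = 20 each), and it was negative in 42 of 46 samples, the wildtype included. The paired difference was -0.0028 ± 0.020, with an adjusted p of 0.844 in the same kind of permutation test. The 20 bins around the centromere, 10 kb on each side, differed from the level of X by -0.07 to 0.10 over all samples.

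Most single bins of X were raised about as much as the chromosome. Across 46 samples the slope of a bin on the X level had a median of 0.996 over 716 bins, and 88.4% of the slopes lay between 0.9 and 1.1. A slope of 1 means that the bin is raised as much as the chromosome, and the slopes rest mainly on the 8 samples with a raised X. The X level is itself the median of the bins of X, so a median slope near 1 largely follows from that definition. Only the spread of the slopes describes the bins. Only 5 bins had a slope under 0.6. They were X:745001-745751 (0.44), X:742001-743000 over COS5 (0.47), X:475001-476000 over YJR027W (0.49), X:18001-19000 over IMA4 (0.50) and X:737001-738000 over SOR1 (0.53). COS5 belongs to a subtelomeric gene family, YJR027W is a Ty retrotransposon reading frame, IMA4 codes for an isomaltase and SOR1 for a sorbitol dehydrogenase. As background, genes of these kinds have close copies elsewhere in the yeast genome. Mappability was not measured, and its part in the low slopes was not tested.

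The bins of X without reads lay in the same kind of sequence. Of the 746 bins, 716 had reads in every sample, 22 had none in over 50% of the samples and 16 had none in any, and a single sample had 19 to 26 empty bins. The runs without reads in most samples covered YJL225C, a helicase-like frame of the subtelomeric Y' element (X:1001-3000 and X:4001-8000), PAU1 and VTH2 (X:9001-15000), and IMA4 (X:17001-18000). Inside the right arm they covered the Ty frames YJR026W and YJR027W (X:473001-475000) and YJR028W and YJR029W (X:479001-482000). Near the right end they covered HXT16, a hexose transporter gene (X:732001-736000). The reference is S288C and the strain W303, and whether these bins are missing from the strain or only unmappable was not tested.

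Among the bins with reads in every sample, 95.1% had a median within 0.2 of the chromosome over the 40 samples without a gain of X. The lowest was X:739001-740000 over the maltose permease gene MPH3, at -5.22. It was followed by X:478001-479000 (-2.84) and X:476001-477000 (-2.78), both over Ty frames, X:730001-731000 (-2.73) and X:737001-738000 over SOR1 (-2.40). The highest were X:745001-745751 (0.48), X:727001-728000 over the aryl-alcohol dehydrogenase gene AAD10 (0.36) and X:701001-702000 over MGM101 (0.20), a gene of mitochondrial genome maintenance. Next came X:467001-468000 over ESS1 and TES1 (0.17) and X:333001-334000 over ZAP1 and LOG1 (0.16). ESS1 codes for a prolyl isomerase, TES1 for a peroxisomal thioesterase, and ZAP1 for the regulator of zinc uptake genes.

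The outer 20 kb of each end were low in all groups. Ends minus interior averaged -1.32 ± 0.18 in evolved and -1.33 ± 0.21 in non-evolved lines, with a paired difference of 0.015 ± 0.26 and an adjusted p of 0.986 by the permutation test. Bins were limited to between -2 and 3 before the chromosome was subtracted, which by itself lowers this measure where X is raised. With limits applied after the subtraction the difference was -0.0045, and with no limits, over end bins with reads in every sample, it was 0.012; neither was past the threshold. Without limits the ends stood at -1.52 to -1.45 in the 5 samples with X at 0.86 or higher, against -1.44 to -1.03 in the 38 samples with X under 0.1. With limits applied after the subtraction they stood at -1.39 to -1.34 in the 5 samples and -1.35 to -1.01 in the 38, ranges that overlap. By either measure the ends were low in both sets, and a difference between the sets was not tested.

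No single bin or gene of X differed between the states once the chromosome level had been removed. With limma and the line as block, 0 of 724 tested bins of X had an adjusted p under 0.05, against 1 of 11810 bins genome-wide (0.00847%), which lies on another chromosome. At an unadjusted p under 0.05 there were 30 bins of X, 13 higher and 17 lower in evolved lines, which is near the 4.74% found over all bins. The lowest adjusted p of any bin of X in limma was 0.988. For genes, 0 of 365 on X and 0 of 6002 in all had an adjusted p under 0.05. At an unadjusted p under 0.05 there were 12 genes of X, 9 higher and 3 lower, beside 4.77% over all genes. On 11810 simulated bins, with 100 changed by 0.5 and 100 by 0.2 at once, this fit recovered 98% and 82% of them. Fewer changed bins were not simulated, so the recovery of a lone changed bin is not known.

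The genes on X with roles in chromosome segregation and in protein folding had about the level of the chromosome in the median over samples. Of the 181 genes in 13 lists, 28 lie on X; some lists hold genes chosen because they lie there, so nothing is read from that count. Of these, 27 had reads in all their bins, and the median of each over samples lay within 0.10 of the chromosome. X was under 0.1 in 38 of the samples, so this median says little about the gained ones. Single samples spread more widely, with an SD over samples of 0.053 to 0.13 per gene. For MCM22 the difference from the chromosome ran from -0.36 to 0.27. By limma, 0 of the 28 differed between evolved and non-evolved lines after removal of the chromosome level, at either an adjusted or an unadjusted p under 0.05. The values below are gene levels relative to the sample baseline, as the mean of the bins a gene overlaps, so neighbouring genes can share bins.

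Of the 6 spindle checkpoint genes listed, MAD2 and MAD3 lie on X. MAD2 (X:387657-388247), whose product binds Cdc20 to hold back separation, stood at 1.04 in D4, 0.87 in F4 and 0.35 in B3 among evolved samples with a gain, and at 0.90 in E4, 0.88 in A3 and 0.84 in G4 among non-evolved ones. In the 38 samples with X under 0.1 it lay between -0.21 and 0.30. MAD3 (X:409493-411040), the yeast BubR1 relative that joins Bub3 and Mad2 in the checkpoint complex, stood at 0.86 in F4, 0.85 in D4 and 0.42 in B3 in evolved samples. It stood at 0.99 in G4, 0.84 in A3 and 0.84 in E4 in non-evolved ones, and between -0.15 and 0.11 in the 38 other samples. For both genes the 6 gained samples lay above the 38 others, as for all of the 27 listed genes but NNF1 and PRE3. Non-evolved D4 and E3, with X raised but not called gained, are in neither set. The share over all genes of X is not given. These values are a description, since both genes are part of the chromosome whose level defined the gains.

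Other segregation genes on X were BIR1, 1 of 5 genes of the passenger complex and shugoshin list, SMC3, 1 of 9 cohesin genes, and CBF1, NNF1 and MCM22, 3 of 41 kinetochore genes. BIR1 (X:587718-590582), the yeast survivin, stood at 0.95 in F4, 0.88 in D4 and 0.37 in B3 in evolved samples, and at 0.86 in A3, 0.85 in E4 and 0.79 in G4 in non-evolved ones. SMC3 (X:299157-302849), a core subunit of the cohesin ring, stood between 0.33 and 0.93 in the 6 gained samples, and CBF1, which binds the centromere DNA element CDEI, between 0.42 and 1.04. NNF1, of the MIND complex, ran from 0.28 to 0.99 in gained samples, and the 38 others reached 0.31. MCM22, of the Ctf3 complex of the kinetochore, ran from 0.46 to 0.93.

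The TRiC chaperonin folds actin and tubulin, and 4 of its 8 subunit genes lie on X: CCT3, CCT5, CCT7 and CCT8. CCT3 ran from 0.54 to 0.99 in the 6 gained samples, CCT5 from 0.41 to 1.0, CCT7 from 0.41 to 1.04 and CCT8 from 0.37 to 0.98. In the 38 other samples these genes reached at most 0.20. Of 20 other chaperone genes, KAR2, JEM1 and SSC1 lie on X. KAR2, the Hsp70 of the endoplasmic reticulum, ran from 0.43 to 0.99, its partner JEM1 from 0.26 to 1.03 and the mitochondrial Hsp70 gene SSC1 from 0.36 to 1.0. PRE3, 1 of 14 genes of the proteasome core, ran from 0.21 to 0.94, and the 38 other samples reached 0.36. NNF1 and PRE3 were the 2 of the 27 genes for which a gained sample, evolved B3, lay inside the range of the 38 samples with X under 0.1. Non-evolved D4 and E3, with X raised but not called gained, are in neither set. The sets were chosen by the X level and the share over all genes of X is not given, so nothing about the listed genes is read from that count.

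Among growth and cell cycle genes, TOR1 and CYR1 lie on X, 2 of 18 in that list. They code for a kinase of the TOR complex and for adenylate cyclase. TOR1 ran from 0.35 to 0.99 in gained samples and CYR1 from 0.38 to 0.97. FAR1, the inhibitor of the cyclin-dependent kinase in mating, ran from 0.43 to 1.04, and SWE1, the kinase that delays mitosis, from 0.37 to 1.01. CDC6, DPB11 and TAH11, which load or start the replication machinery, ran from 0.47 to 0.99, 0.38 to 0.80 and 0.50 to 1.06. The septin gene CDC11 ran from 0.42 to 0.99.

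The metabolic list members were TDH1 and TDH2, 2 of 3 genes of the glycolytic enzyme glyceraldehyde-3-phosphate dehydrogenase, and the hexose transporter genes HXT8, HXT9 and HXT16, 3 of 16. TDH1 ran from 0.44 to 1.06 and TDH2 from 0.56 to 1.08. HXT8 ran from 0.41 to 1.02 and HXT9 from 0.21 to 0.85, while HXT16 had bins without reads and is given no level. The TDH and HXT genes have close copies on other chromosomes, so their reads may be split between copies.

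**Figure D5:**
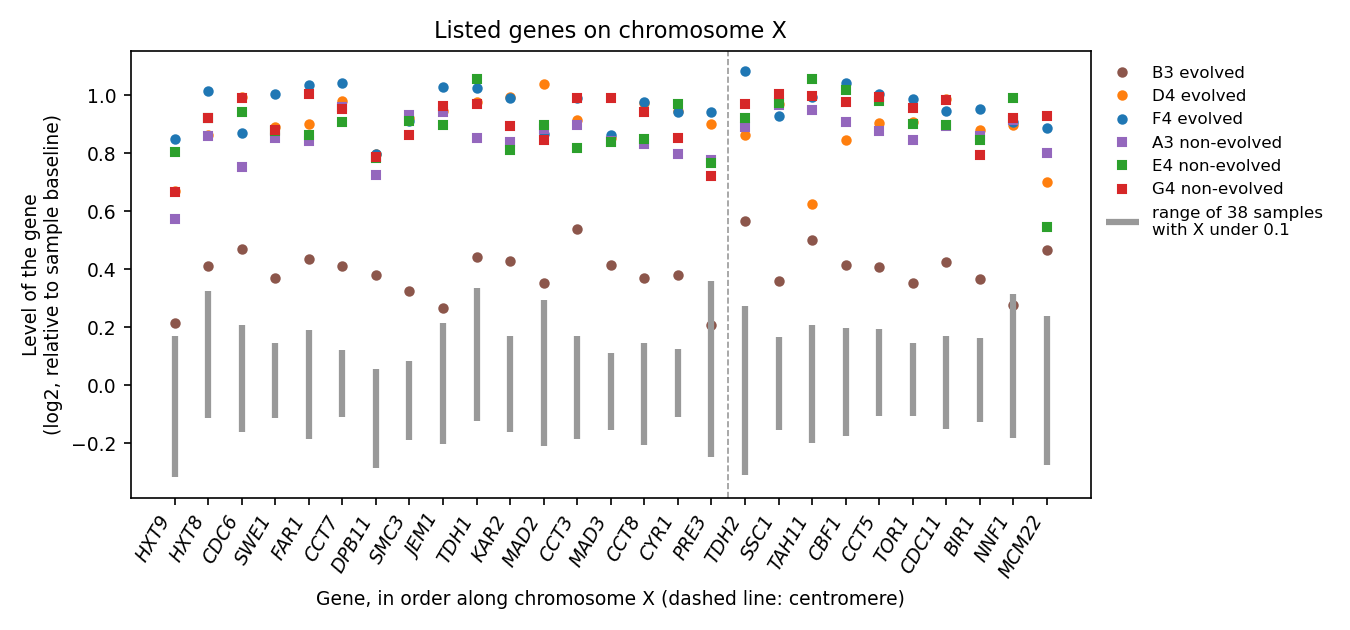
Level of 27 listed genes (log2 relative to the sample baseline, vertical axis) in order along chromosome X (horizontal axis, dashed line at the centromere) in the 3 evolved (circles) and 3 non-evolved (squares) samples with a gain of X; grey bars span the 38 samples with X under 0.1. The points of each sample scatter around its chromosome level, some widely, such as MCM22 at 0.55 in non-evolved E4, where X stood at 0.91. Evolved B3, the sample with the lowest X level of the 6, is the lowest for all 27 genes.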

How the data were processed

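Genomic DNA from 46 W303 cultures was sequenced after tagmentation, per the labels' protocols. The authors deposited log2 copy ratios per 1 kb bin. Trimmomatic 0.39, BWA 0.7.17, Picard 2.27.1 and GATK are named per the submitters' processing notes, without settings. The contigs are those of R64. Within each sample, deposited ratios were whole reads over the median bin (tolerance 0.01 reads) for 100% of values, or 99.99% in evolved A1, B3, C3 and D3, so reads were recovered. Bins without reads stood at a floor of -29.9.

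Levels are relative to the median of 16 chromosome medians. States were compared by paired sign-flip tests (100000 resamples, two-sided, Benjamini-Hochberg over 16 chromosomes) and with limma 3.58.1 in R 4.3.3, with the line as block and chromosome medians subtracted. Empty bins were given 0.5 reads, and bins empty in over 50% of samples were left out. The limma fit of bins and the sign-flip test were tested on simulated data. Samples were paired by line code; bin deviations of paired samples correlated at -0.005 to 0.087 over 11726 bins, with 0 of 20 lines over 0.1. Intervals cover counting error only. Named were samples at or above 0.1, listed genes on X, any called bins, empty runs and the 5 highest and lowest bins; the lowest-slope bins and COS5 were named after their values were seen. Members and lists were chosen with earlier results of these data known. One listed gene is not reported here, and its list is counted without it.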

Additional observations from a re-analysis of the deposited data

How the results depend on the processing

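Of 186 recomputed values under 45 settings, 178 kept their side of the threshold and, where the reported value was not 0, their direction, 7 changed sign and 1 count moved by over 1.5 times. With a gain threshold of 0.2, the count was 5 in non-evolved lines, where D4 and E3 entered, in place of 3, and with 0.5 it was 2 in evolved lines, where B3 was left out. The values that changed sign were all small and not past the threshold. The evolved_Bub3 minus evolved difference was 0.00021 without replicate 1 (line C2), within a range of -0.015 to 0.00021 over the 3 lines left out in turn. Leaving out each line in turn, the arm difference ranged from -0.0044 to 0.00011 (positive without A4), the ends from -0.014 to 0.043 (-0.0040 without A3, -0.0080 without E4 and -0.014 without G4), the X level from -0.097 to -0.0011, and the gained lines from 2 to 3 in each state. The ends gave -0.056 with the median of the end bins, and -0.0045 with limits applied after the chromosome was subtracted, an alternative added after seeing the data. The difference in gained lines, 0 as reported, was -2 with a threshold of 0.2, -1 with 0.5 and -1 to 1 with single lines left out, always with an adjusted p of 1. Without the replicate block, which uses the pairing of lines, no call on X changed: the X level differed by -0.05 (adjusted p = 0.961), the arms by -0.0028 (adjusted p = 0.837) and the ends by 0.015 (adjusted p = 0.99), and over all alternatives the adjusted p was 0.768 to 0.998 for the level, 0.722 to 0.978 for the arms and 0.695 to 0.992 for the ends. The 1 called bin, outside X, was lost (0 calls) without the block, without the filter on empty bins and with a trended, robust variance model. The cause of the changes of sign was not tested. Ploidy is unknown, so a change shared by every chromosome is invisible here, and with 127 to 373 reads in the median bin of X, changes of single bins smaller than 0.2 were not tested by simulation.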

Other observations

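In a few libraries the stretches 20 to 70 kb from the ends of chromosome X stood above its middle by more than 0.1. These had no gain of X, as most samples did not, and their other chromosomes rose too. The difference was 0.24 in evolved A4 and 0.30 in non-evolved B2, against medians over 13 other chromosomes of 0.16 in evolved A4 and 0.23 in non-evolved B2. In evolved_Bub3 G4 it was 0.17 on X and 0.11 on the others. Wildtype LY1 in the non-evolved state had 0.11 on X and 0.092 on the others. Evolved A1 came next, with 0.097 on X and 0.079 on the others. Over all lines it averaged 0.030 ± 0.056 in evolved and 0.034 ± 0.069 in non-evolved samples (SD, n = 20 each).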
